A study of Mus musculus with 2 samples.

Results

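Basal airway cells were described in single-cell RNA data from droplets, made of lung epithelial cells sorted from 2 mice. The cells were chosen by their transcripts. A cell had to show at least 3 of the 5 genes Krt5, Krt15, Aqp3, Dapl1 and Fxyd3 with at least 1 UMI (unique molecular identifier, a count of 1 captured transcript), and had to hold under 20% of its UMIs in Sftpc and under 20% in Scgb1a1. Only barcodes with at least 2000 UMIs, at least 500 genes and at most 20% mitochondrial UMIs were considered. This gave 82 basal cells among 19152 cells. The tumor-bearing library held 28 among 8165 cells, and the control library held 54 among 10987.

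Both libraries came from wild-type C57BL/6 mice. The tumor-bearing library was taken 14 days after 1000000 LLC cells (Lewis lung carcinoma, a transplantable mouse lung cancer line, here carrying luciferase) were placed under the skin of the back, and the control library came from an untreated mouse. CD45-, SftpC+ cells were sorted with antibodies from digested lung, a gate aimed at alveolar type 2 (AT2) cells, so basal cells were not what the sort was built to keep. Each group had 1 library, so no difference between the mice has a replicate check and none was tested.

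Basal cells sit on the basement membrane of the conducting airways, below the club and ciliated cells that face the lumen. They divide to renew themselves and to supply those cells, and they carry keratins Krt5 and Krt14 or Krt15, the transcription factor Trp63 and hemidesmosomes that fix them to the matrix. In the mouse they are common in the trachea and main bronchi and scarce in the small airways inside the lung.

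The libraries held 84448360 and 91498124 UMIs in the order tumor-bearing, control, and the median cell had 8696 and 6869 UMIs. The median basal cell had 7222.5 and 5802.5 UMIs and 2311.5 and 1908 genes, with a mitochondrial share of 3.25% and 3.76%. Together the basal cells held 255524 and 346213 UMIs, so 1 UMI stood for 3.91 and 2.89 CPM (UMIs of a gene per 1000000 UMIs of the summed cells). The 2 libraries shared 128 cell barcodes, none of them held by basal cells in both. For comparison, joint clusters named from marker genes gave 5945 and 9234 AT2-like cells, 218 and 392 alveolar type 1 (AT1)-like cells, 296 and 84 club-like cells, and 265 and 362 ciliated-like cells. These names were rebuilt here and may differ from the submitters' own.

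Basal cells made up 0.343% of the cells of the tumor-bearing library (exact Clopper-Pearson 95% interval 0.228 to 0.495) and 0.491% of the control library (0.369 to 0.641). The intervals overlapped. They cover counting error only, as do all intervals given here, and the sort can set such shares. The choice of members was mostly sharp. In the tumor-bearing library 25 members showed all 5 rule genes, 1 showed 4 and 2 showed 3, and in the control library the numbers were 33, 15 and 6. Just outside the rule lay 12 and 3 cells with exactly 2 of the genes, of which none held Krt5 and 9 and 2 held Krt15. Of the 8 members with exactly 3 genes, 1 control cell held Krt5 and all held Krt15. In the tumor-bearing library 3 more cells showed enough markers but held 25.3% to 29.5% of their UMIs in Scgb1a1, and 1 held 21.1% in Sftpc. No control cell was left out for either limit.

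The label was checked against genes outside the rule. Clustering placed 25 and 48 of the members in 1 basal-like cluster, which held 1 other cell. The 9 remaining members lay in clusters of other cells. Of these, 1 tumor-bearing and 3 control cells were in the club-like cluster, 1 tumor-bearing cell in the AT1-like cluster, 1 tumor-bearing cell in a neuroendocrine-like cluster, 2 control cells in the ciliated-like cluster and 1 control cell in an unnamed cluster. Trp63, the transcription factor of the basal state, was held by 13 of 28 and 23 of 54 members, against 1 of 5945 and 3 of 9234 AT2-like cells. Krt14, the keratin of many stratified basal layers and of injured airway, was nearly absent, with 2 UMIs in 1 cell and 7 UMIs in 3 cells. Ngfr, a surface receptor used to sort basal cells, had 12 UMIs in each library, in 10 and 8 cells. Ptprc, which encodes the CD45 removed by the sort, had no UMI in any member. The clusters were built on the same counts as the rule, so they are no separate check.

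Krt15, a basal keratin, gave the most UMIs of the rule genes and was found in every member. Its summed level was 2927 and 3509 CPM, and single cells ran from 292 through a median of 2945 to 8892 CPM and from 387 through 3060 to 12620 CPM. The cells of the 2 libraries covered much the same range. Krt5, the partner keratin most used to name basal cells, gave fewer UMIs, 189 in 25 cells (740 CPM) and 194 in 42 cells (560 CPM). Its median over cells was 673 and 365 CPM, and both libraries held cells with none. Krt17, a keratin of basal and activated cells, stood at 380 and 237 CPM. Being in the rule, Krt5 and Krt15 are given as a description.

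The other rule genes serve transport and differentiation. Aqp3, a channel for water and glycerol on the basolateral membrane, stood at 1041 and 1184 CPM. Fxyd3, a regulator of the sodium pump, stood at 1131 and 1020 CPM. Dapl1, a small protein linked to early epithelial differentiation, stood at 759 and 404 CPM, a fold of 1.88 (1.5 to 2.35), which was the widest gap between the libraries among the 5. Single tumor-bearing cells ran from 0 through 938 to 2212 CPM of Dapl1 and control cells from 0 through 401 to 1227 CPM, so the ranges overlapped. Sult1d1, a sulfotransferase given as a marker but not used by the rule, was patchy. It was found in 17 of 28 and 32 of 54 members at 603 and 615 CPM, and the highest cell reached 3744 and 2602 CPM.

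**Figure D1:**
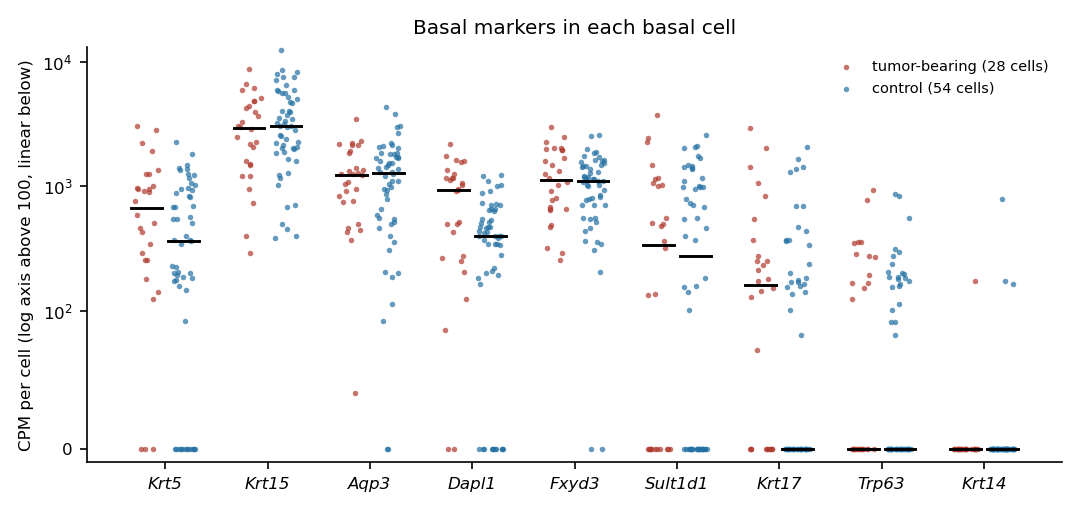
CPM of 9 basal markers in each of the 28 tumor-bearing (red) and 54 control (blue) basal cells. Each point is 1 cell, black bars are medians over cells, and the vertical axis is logarithmic above 100 CPM and linear below. Krt15 is found in every cell, while Krt14 is found in 1 and 3 cells.

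On the mouse genome (GRCm38, GENCODE vM21), Krt5 lies at chr15:101707070-101712898 on the minus strand and Krt15 at chr11:100131758-100135928 on the minus strand, near Krt17 at chr11:100256217-100261029. Trp63 lies at chr16:25683763-25892102 on the plus strand. Aqp3 and Dapl1, which are in the rule and reached at most 1.4 and 1.49 CPM in the other 4 classes, both hold the letters TATAAA close to the start of transcription. Their promoters are shown for that reason, from RefSeq (GRCm38.p6), each covering the 250 bases before the start, read 5′ to 3′ on the strand of the gene. Capitals mark these letters, which begin 29 bases before the start in both. The Aqp3 window is chr4:41098184-41098433 on the minus strand and the Dapl1 window is chr2:59484403-59484652 on the plus strand.
Aqp3: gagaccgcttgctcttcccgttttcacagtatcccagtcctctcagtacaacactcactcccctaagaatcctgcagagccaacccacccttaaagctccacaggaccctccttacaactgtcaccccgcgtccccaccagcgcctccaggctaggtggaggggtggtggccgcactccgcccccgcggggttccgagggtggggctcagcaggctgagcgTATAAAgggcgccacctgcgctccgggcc
Dapl1: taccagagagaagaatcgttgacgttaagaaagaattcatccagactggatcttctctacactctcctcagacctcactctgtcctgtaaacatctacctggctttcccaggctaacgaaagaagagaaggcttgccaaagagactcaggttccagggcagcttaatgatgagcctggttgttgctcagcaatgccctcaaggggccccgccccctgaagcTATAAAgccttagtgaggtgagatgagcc
Searched on both strands, TATAAA occurred in 12.37% of all 32851 promoter windows of that length. The Krt5 window held none of the motifs searched, which says only that these letters are not there. Of 20 genes looked up, 11 had a window in the table.

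AT2 cells were most of the sorted cells, so AT2 transcripts were followed in the basal cells. Members split into a larger group with little Sftpc, the surfactant protein gene of AT2 cells, and a smaller group with much. Below 5% of UMIs lay 22 and 41 members, with Sftpc medians of 0.858% and 1.33% and a highest value of 1.34% and 3.02%. Above it lay 6 and 13 members, with medians of 14.1% and 14.0%. In AT2-like cells the medians were 27% and 26.5%. The members with much Sftpc also had more UMIs, with median UMIs of 14575 and 9978 against 6398.5 and 5491.

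In CPM, the high-Sftpc members stood higher for other AT2 transcripts and lower for the 5 rule genes, in both libraries. Napsa, an aspartic protease that processes surfactant protein, stood at 1057 CPM in them and 46.7 CPM in the others in the tumor-bearing library, and at 969 and 117 CPM in the control library. Slc34a2, the phosphate carrier of AT2 cells, stood at 1176 against 64.2 CPM and at 1194 against 117 CPM. Krt15 stood at 1983 against 3391 CPM and at 1782 against 4375 CPM. Trp63 stood at 131 against 181 CPM and at 130 against 82.4 CPM. These values rest on 11 against 31 and 15 against 19 UMIs. Their intervals overlapped in both libraries, so no direction can be read. Krt5 stood at 344 against 934 CPM and at 398 against 642 CPM, and Aqp3 at 558 against 1278 CPM and at 640 against 1457 CPM. Sftpc took a median of 14.1% and 14.0% of the UMIs of the high-Sftpc members, which lowers the CPM of their other genes. These members also had more UMIs, and UMIs per cell were not compared. Ager, a marker of AT1 cells, was also higher in the high-Sftpc members, at 831 against 140 CPM and at 1151 against 182 CPM. Of the members, 1 and 4 were among the cells with the highest doublet scores (1 and 3 of them with much Sftpc), and the automatic threshold of Scrublet marked none. Surfactant genes Sftpc, Sftpa1 and Sftpb made up 6.08% and 6.64% of the members' UMIs and 22.1% and 27.1% of those in empty droplets. The part of mixed droplets in these cells was not tested.

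**Figure D2:**
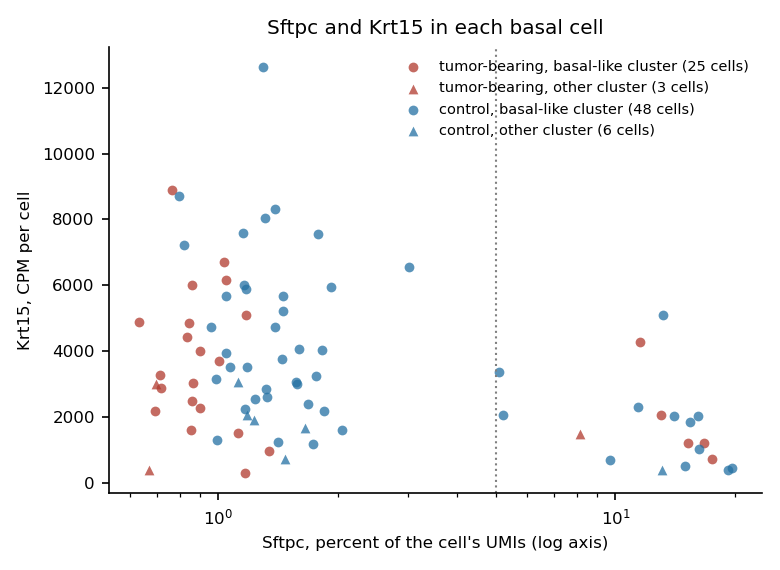
Share of UMIs in Sftpc (percent, logarithmic axis) against Krt15 (CPM, linear axis) in each basal cell, tumor-bearing in red and control in blue. Circles are members in the basal-like cluster, triangles members in other clusters, and the dotted line is at 5%. Right of the line lie 6 and 13 cells, with Sftpc medians of 14.1% and 14.0%.

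The basal cells differed from the other epithelial cells of the same library in a long list of genes. A gene was counted where it reached at least 100 CPM in basal cells, stood at least 2-fold above the highest of the AT2-like, AT1-like, club-like and ciliated-like cells (log2 ratio with 1 CPM added) and had separate exact Poisson 95% intervals, all in both libraries. Of 996 genes that could be counted, 88 did so (8.84%). As the members were chosen by 5 of these genes and share many others, this is a description and not a test.

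Among keratins and adhesion genes, Krt17 stood 7.96 and 7.48 log2 units above the highest other class. Perp, a desmosome protein and target of the p53 family, stood at 622 and 661 CPM, 2.78 and 3.41 log2 units above. Dst, which holds keratin filaments to hemidesmosomes, stood at 215 and 156 CPM, 2.77 and 2.35 log2 units above. Hemidesmosome genes gave few UMIs. Itgb4, an integrin of the hemidesmosome, reached 82.2 and 116 CPM and ciliated-like cells 72.2 and 55.2 CPM, while Col17a1 reached 70.4 and 37.5 CPM and was at most 0.332 CPM in the other 4 classes. Several genes given as basal markers in general use were higher elsewhere in the lung. Pdpn stood at 250 and 168 CPM against 836 and 869 CPM in AT1-like cells, and Igfbp2 at 15.7 and 11.6 CPM against 1480 and 1424 CPM. Of the 23 basal markers listed, 14 could be counted in this comparison and 9 stood above every other class, beside 8.84% of all genes. The 5 rule genes are among the 9, and the other 4 were Krt17, Sult1d1, Dlk2 and Perp.

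Of the countable genes of signalling lists, 1 of 4 Notch, 1 of 3 Wnt and 1 of 2 EGF and FGF genes stood above every other class. Beside this, 8.84% of all countable genes did so, and with so few genes the counts say little about the lists. Dlk2, a membrane protein related to Notch ligands, stood at 172 and 188 CPM, 6.61 and 7.44 log2 units above the others. Sfrp1, a secreted inhibitor of Wnt signalling, stood at 113 and 150 CPM. Wnt4, a Wnt ligand, did not meet the rule, at 207 and 257 CPM against 137 CPM in ciliated-like cells of either library. Fgfr3, a receptor for fibroblast growth factors, stood at 157 and 144 CPM, 1.01 and 1.27 log2 units above the others. F3 is tissue factor, the starter of blood clotting. Its level was 1585 and 1239 CPM against 217 and 235 CPM in AT1-like cells, and 28 and 51 members held it. Ltbp4, which binds latent TGF-beta in the matrix, stood at 141 and 133 CPM, 3.44 and 4.66 log2 units above the others.

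Transport, metabolism and defence gave further genes. Aqp4, a water channel, stood at 200 and 248 CPM, 3.20 and 4.51 log2 units above the others. It was found in 18 of 28 and 42 of 54 members, and Aqp3 in 28 and 52. Adh7, an alcohol and retinol dehydrogenase, stood at 235 and 324 CPM, 4.19 and 5.59 log2 units above. Hcar2, a receptor for niacin and ketone bodies, stood at 117 and 127 CPM. Lipid and host defence genes were in the same list. Apoe, a carrier of lipids, reached 1972 and 2906 CPM against 334 and 461 CPM in AT2-like cells. Defb1, a defensin, reached 160 and 130 CPM, with at most 1.05 CPM in any other class. Ltf, lactoferrin, was a matter of single cells, since 96.2% and 72.6% of its UMIs came from 1 cell in each library.

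Dcn and Abi3bp, both better known from fibroblasts, were held by most basal cells. Dcn, a small proteoglycan that binds collagen, stood at 1260 and 1245 CPM and was found in 25 of 28 and 48 of 54 members, against 0.269% and 0.325% of AT2-like cells at median depths of 8848 and 6927.5 UMIs. Thinned to 2000 UMIs per cell, 67.9% and 75.9% of members held it. Abi3bp, a matrix protein, stood at 595 and 468 CPM in 25 and 41 members. The fibroblast marker list of 15 genes summed to 2078 and 2215 CPM, of which Dcn was the larger part. AT2-like cells reached 173 and 171 CPM, and AT1-like cells 2356 and 1930 CPM. Of the listed genes 4, Dcn among them, reached 50 CPM in 1 of the libraries. After the basal list, the fibroblast list gave the second highest score of the basal-like cluster (2.70 against 3.69 log2 units). Some listed genes were at or near 0, with 1 and 3 UMIs of Col1a1, 4 and 3 of Col1a2, 0 and 3 of Pdgfra, and none of Lum.

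**Figure D3:**
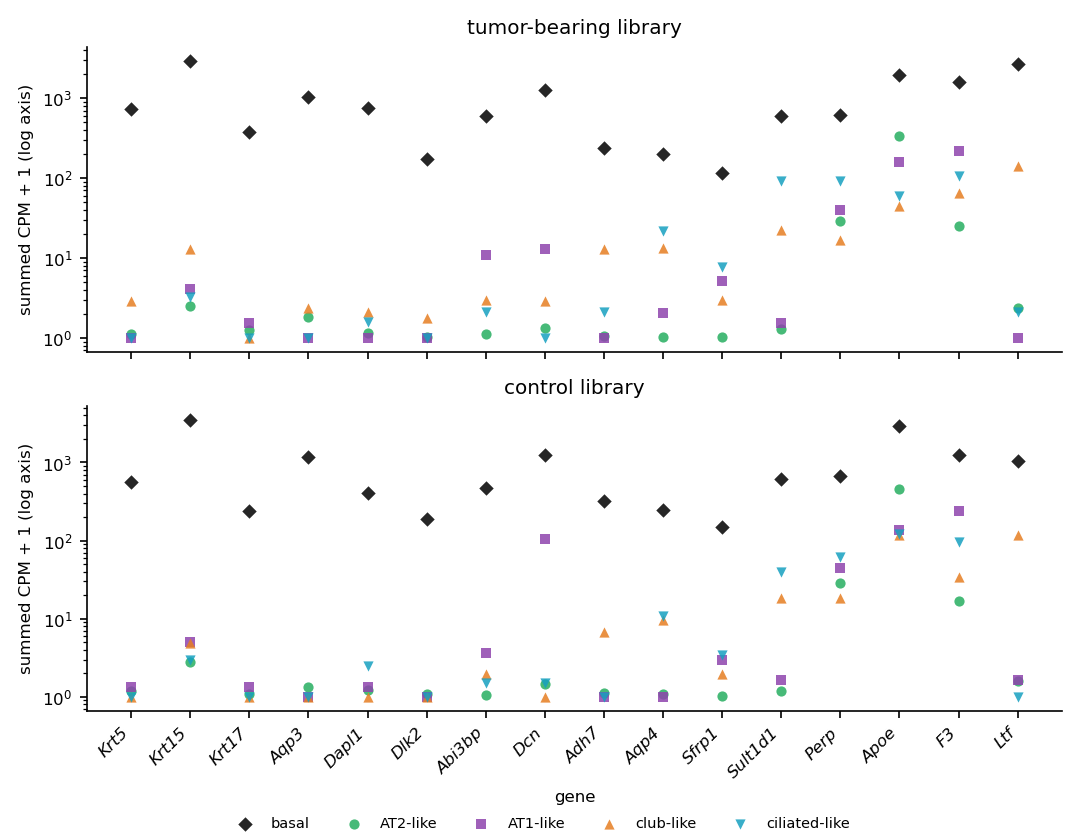
Summed CPM plus 1 (logarithmic axis) of 16 genes in basal cells (black diamonds) and in the 4 other epithelial classes, in the tumor-bearing (top) and control (bottom) library. Each symbol is 1 class in 1 library. Basal cells stand highest for every gene shown, by the least for Apoe in the tumor-bearing library (2.56 log2 units) and F3 in the control library (2.40 log2 units).

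Genes of the cytosolic ribosome were the largest group among the 88. This group was chosen after the values were seen. Of its 81 countable genes 31 stood above every other class (38.3%), against 8.84% of all countable genes. Ribosomal protein genes took 22.6% and 24.5% of the UMIs of basal cells, 11.8% and 12.6% of those of AT2-like cells and 7.30% to 8.87% of those of AT1-like, club-like and ciliated-like cells. Many have near-identical pseudogenes, between which reads can be split. Mki67, a marker of dividing cells, had 1 UMI in each library. Top2a, which untangles DNA in dividing cells, had none, and the limit of 3 cells that a count of 0 allows is 10.7% and 5.56% of members. The cell cycle list as a whole summed to 1835 and 1470 CPM in basal cells, against 940 and 865 CPM in AT2-like and 1444 and 1413 CPM in AT1-like cells. It also holds genes with other roles, such as Ccnd1 (227 and 179 CPM), H2afz (497 and 416 CPM) and Tubb5 (168 and 127 CPM). Of its 28 genes 6 were at 0 in both libraries, and none of the 5 countable stood above every other class.

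Some genes of club cells had about as many CPM in basal cells as in club-like cells. Scgb1a1 took a median of 60.5% and 54.4% of the UMIs of club-like cells, which lowers the CPM of their other genes. Club-like cells also had more UMIs, with medians of 22653.5 and 10203.5 against 7222.5 and 5802.5. Levels per cell were not compared. Cyp2f2, a cytochrome P450 of club cells, was in every member at 4970 and 5153 CPM, against 4939 and 4587 CPM in club-like cells, 64.2 and 48.4 CPM in AT2-like cells and 637 and 133 CPM in empty droplets. Cbr2, a carbonyl reductase, was in every member too, at 12969 and 14962 CPM against 14166 and 14700 CPM in club-like cells, but empty droplets also held 8542 and 9065 CPM of it.

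Markers of ciliated, goblet, squamous and hillock cells were few. Foxj1, the regulator of ciliated cells, had 1 and 10 UMIs, against 347 and 324 CPM in ciliated-like cells. Muc5ac, a mucin of goblet cells, had none. Krt13 and Krt6a of squamous and hillock cells had none, and Krt4 had 0 and 1 UMI. The hillock and squamous list summed to 70.4 and 72.2 CPM, with 11 of 19 genes at 0 in both libraries. Wfdc2, a secreted protease inhibitor of airway cells, was in every member at 4786 and 5193 CPM. Club-like cells, where Scgb1a1 took most UMIs of the median cell, stood at 4387 and 4436 CPM. Simple keratins were present too, with Krt19 at 751 and 702 CPM and Krt18 at 798 and 699 CPM.

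Differences among the cells of each library were described for some pairs of genes. Spearman correlations were taken over the 20 tumor-bearing and 36 control members in the basal-like cluster with under 5% Sftpc, each over cells of 1 library. They are descriptions, and the pairs were chosen after the values were seen. Dcn went with Apoe (rho 0.56 and 0.52) and against S100a6 (-0.37 and -0.62) and Sult1d1 (-0.44 and -0.39). Sult1d1 went with Gsto1, a glutathione transferase (0.59 and 0.62). Dcn and Apoe had a rho near 0 with the total UMIs of the cell (between -0.07 and 0.02), while Sult1d1 went with it (0.38 and 0.49), as did Krt5 (0.37 and 0.65). Krt5 had little relation to Dcn (-0.19 and -0.23). Its rho with Trp63 was 0.15 and -0.03, but Trp63 had only 31 and 18 UMIs, in 10 and 13 of these cells. So few counts could hide a relation. Fos went with Egr1 (0.67 and 0.75) and Klf6 (0.75 and 0.65), both immediate early transcription factors.

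Between the libraries, few genes of the basal cells differed by the size rule used. Under it, a gene was counted where 1 of the libraries reached 100 CPM, the log2 ratio was 1 or more in either direction and the exact Poisson 95% intervals did not overlap. Of 1289 genes, 28 were higher in the tumor-bearing library (2.17%) and 17 lower (1.32%). Over the 2673 genes that reached 50 CPM in 1 of the libraries, 1336 lay above and 1337 below equality. These are comparisons of 2 libraries and their few cells. A single cell held at least 50% of the UMIs of 14 of the 28 higher genes, and without the cell holding most UMIs of the gene 8 were counted as higher. Of the 17 lower genes, 8 were counted with and without that cell. The cell was left out only in the library with the higher CPM of the gene.

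The genes that rested on 1 cell came from 3 tumor-bearing cells. The member with most UMIs (24977, in the club-like cluster) held 5561 of 6623 UMIs of Bpifa1, 1496 of 1674 of Scgb3a1, 657 of 683 of Ltf and 574 of 731 of Scgb3a2, all secreted products of club or gland cells. Without it, but with every control member kept, Scgb3a1 differed 1.04-fold (0.851 to 1.26) in place of 8.79-fold (7.71 to 10.1). Bpifa1 was then 0.621-fold (0.577 to 0.667) in place of 3.49-fold (3.34 to 3.66). Single cells weighed on these values too. The highest control cells held 153 of 258 UMIs of Scgb3a1 and 846 of 2570 of Bpifa1. Of the remaining tumor-bearing UMIs of Bpifa1, 832 lay in 1 cell. A member of 14616 UMIs in the AT1-like cluster held nearly all transcripts of smooth muscle. It held 106 of 107 UMIs of Acta2, 84 of 85 of Tpm2, all 47 of Tcap, 27 of Actg2 and 26 of Des. Control members had none of these, so against a floor of 3 UMIs over the control members Acta2 was at least 48.3-fold and Tpm2 at least 38.4-fold higher. The smooth muscle list summed to 943 and 5.78 CPM in members and to 581 and 68.7 CPM in AT1-like cells. It also gave the AT1-like cluster its second highest score (2.27 against 3.67 log2 units for the AT1 list). A member of the basal-like cluster with 8543 UMIs held 114 of 133 UMIs of Reg3g, a lectin that kills bacteria.

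**Figure D4:**
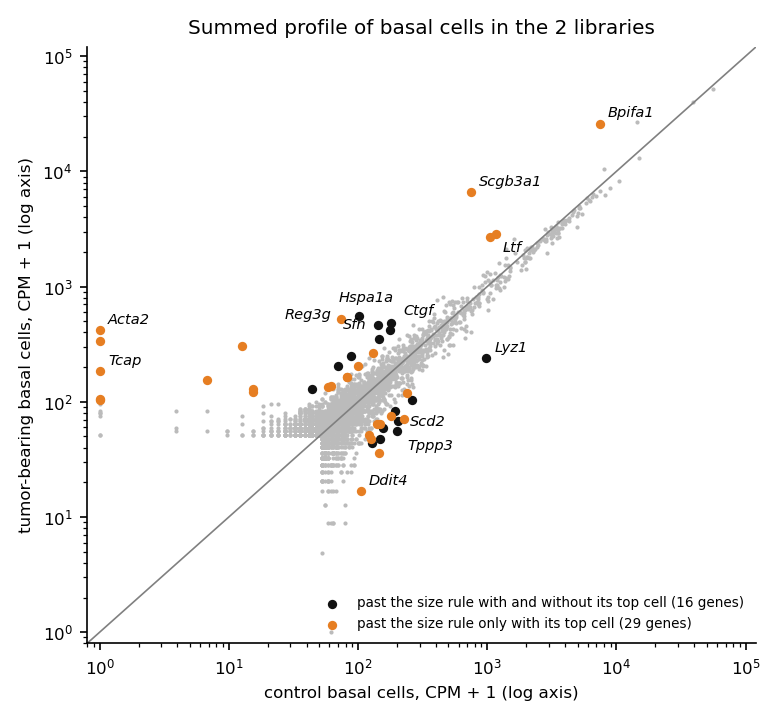
Summed CPM plus 1 of each gene in control (horizontal) and tumor-bearing (vertical) basal cells, both axes logarithmic, with the line of equality. Grey points are all genes that reached 50 CPM in 1 of the libraries, black points the genes past the size rule with and without their top cell, and orange points those past it only with that cell. Acta2, Tcap and Scgb3a1 are orange, while Sfn, Hspa1a and Ctgf are black.

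Sfn, the 14-3-3 sigma protein of keratinocytes and a p53 target, was the basal marker with the widest gap. It had 119 and 49 UMIs, or 466 and 142 CPM, a fold of 3.29 (2.34 to 4.69). It was held by 26 of 28 and 22 of 54 members, and single cells ran from 0 through 328 to 1419 CPM and from 0 through 0 to 961 CPM. The ranges overlapped, but more control cells had none. After thinning to 2000 UMIs, 53.6% and 24.1% of members held it. AT2-like cells gave a background of 13% and 13.4%, or 3.58% and 4.57% after thinning. In the other classes the ratio went the other way or was near 1, at 0.849-fold in AT2-like, 0.265-fold in AT1-like, 0.961-fold in club-like and 0.461-fold in ciliated-like cells. No difference between classes in such a ratio was tested, since each group had 1 library.

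Stress genes came next. Hspa1a, the inducible heat shock protein 70, had 141 and 35 UMIs, or 552 and 101 CPM, a fold of 5.46 (3.75 to 8.15). It was found in 24 of 28 and 25 of 54 members. A near-identical copy, Hspa1b, can share its reads. The same gene was higher in the other classes too, 3.07-fold in AT2-like, 3.85-fold in AT1-like, 8.86-fold in club-like and 2.19-fold in ciliated-like cells, so it was higher in all 5 groups of cells. Dnaja1, a co-chaperone of heat shock protein 70, was in all 28 tumor-bearing and 30 of 54 control members, at 348 and 144 CPM, a fold of 2.41 (1.69 to 3.48). In the other 4 classes its fold lay between 0.93 and 1.3. Of 14 countable heat shock and endoplasmic reticulum chaperone genes, these 2 were higher and none lower, beside 2.17% and 1.32% of all genes. The median log2 ratio of the 20 measured was 0.20, against -0.001 for all genes. Hsp90aa1 differed 1.39-fold (1.13 to 1.71).

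The promoters of Sfn and Hspa1a are shown because these genes lead the differences that many cells shared. Both are RefSeq windows of the 250 bases before the start (GRCm38.p6), 5′ to 3′ on the gene's strand, at chr4:133602169-133602418 on the minus strand for Sfn and chr17:34972157-34972406 on the minus strand for Hspa1a. Capitals in Sfn mark a match to AACNGGTT, the letters bound by grainyhead-like factors of epithelia, which begins 184 bases before the start. Capitals in Hspa1a mark a match to GAANNTTC, a pair of heat shock element repeats, which begins 104 bases before the start.
Sfn: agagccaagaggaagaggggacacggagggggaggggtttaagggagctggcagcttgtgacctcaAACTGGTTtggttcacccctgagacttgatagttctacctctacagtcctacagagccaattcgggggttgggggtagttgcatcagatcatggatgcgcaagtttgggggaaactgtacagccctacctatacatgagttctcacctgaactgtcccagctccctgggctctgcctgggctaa
Hspa1a: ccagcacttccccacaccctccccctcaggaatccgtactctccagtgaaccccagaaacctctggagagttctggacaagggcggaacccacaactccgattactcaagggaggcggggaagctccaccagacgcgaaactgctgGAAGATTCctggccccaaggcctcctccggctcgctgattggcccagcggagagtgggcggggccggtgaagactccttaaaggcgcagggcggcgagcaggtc
On either strand, AACNGGTT occurred in 1.79% and GAANNTTC in 6.69% of all windows. A match describes the letters and not a bound site.

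Of the remaining higher genes, Ctgf, a matrix protein and target of the Yap pathway, had 123 and 62 UMIs, or 481 and 179 CPM, a fold of 2.69 (1.97 to 3.71). It was found in 23 of 28 and 14 of 54 members, so the libraries differed in how many cells held it. The highest cell reached 1685 and 2305 CPM. Ctgf was the only one of 24 countable immediate early and stress genes to differ by the rule, beside 2.17% of all genes higher. The median of the 29 measured was -0.12. Prpf38b, Kmt2e, Abracl and Tpm1 were also counted with and without their top cell. Their folds were 2.98, 2.94, 2.85 and 2.40, and Kmt2e and Prpf38b are a chromatin protein and a splicing factor. Ech1, an enzyme of fatty acid oxidation, stood at 204 and 98.2 CPM, and of 15 measured genes of that list 11 lay above and 4 below equality.

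**Figure D5:**
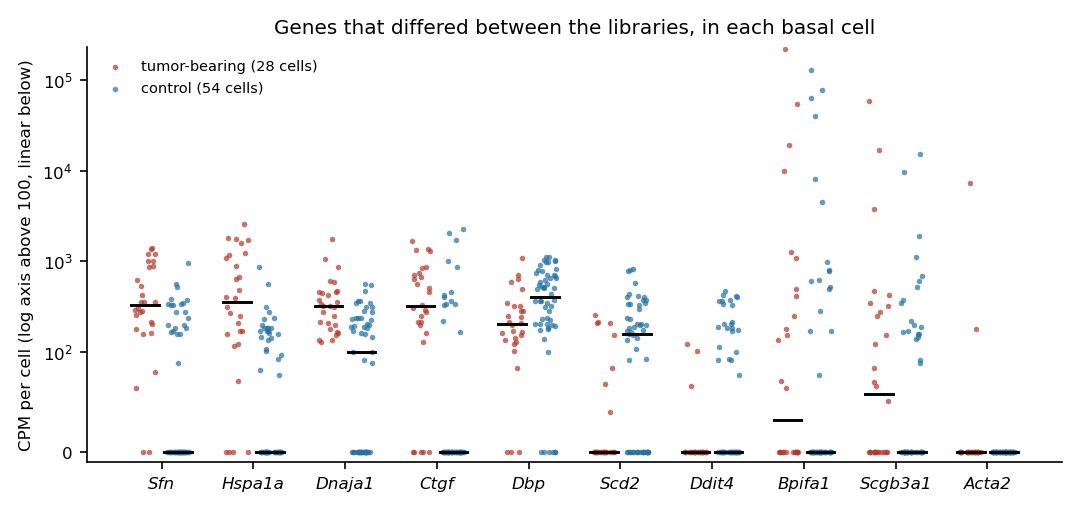
CPM of 10 genes that differed between the libraries in each of the 28 tumor-bearing (red) and 54 control (blue) basal cells. Points are cells, black bars medians, and the vertical axis is logarithmic above 100 CPM and linear below. Sfn, Hspa1a and Dnaja1 are spread over many cells, whereas Acta2 is found in 2 cells of 1 library, and Dbp did not meet the size rule.

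Among genes lower in the tumor-bearing library, the lowest ratio was that of Ddit4. Ddit4, an inhibitor of mTOR induced by glucocorticoids and low oxygen, had 4 UMIs in 3 cells and 36 UMIs in 23 cells, or 15.7 and 104 CPM, a fold of 0.151 (0.0389 to 0.420). Without its top cell it was 0.163-fold (0.042 to 0.461) and no longer counted. In the other classes it was 1.02-fold in AT2-like, 2.01-fold in AT1-like, 0.547-fold in club-like and 1.85-fold in ciliated-like cells. Scd2, a fatty acid desaturase, stood at 66.5 and 202 CPM, 0.329-fold (0.182 to 0.565), in 8 and 33 cells. In the other 4 classes Scd2 was 0.409-fold to 0.655-fold, so it was lower there as well. Fermt1, kindlin-1, which activates integrins in epithelia, stood at 50.9 and 121 CPM, 0.419-fold (0.207 to 0.796), and was no longer counted without its top cell. It was the 1 gene of 7 countable in the hemidesmosome and basement membrane list to differ by the rule, beside 1.32% of all genes lower. Itgb1 lay the other way at 157 and 86.7 CPM.

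The 8 genes counted as lower with and without their top cell were Scd2, Tppp3, Lyz1 and the 5 that follow. These were H1f0, a linker histone (82.2 and 194 CPM), Myh14, a non-muscle myosin (58.7 and 156 CPM), Tm2d2 (43.0 and 127 CPM), 8430408G22Rik (102 and 260 CPM) and Gm12216 (47.0 and 147 CPM). H2afy, Tns3 and Cmtm8, like Ddit4 and Fermt1, were counted only with their top cell. Those cells held just 6.02% to 11.6% of the control UMIs, so these 5 genes did not rest on 1 cell. Some other lower genes were markers of neighbouring cells. Tppp3 of ciliated and AT1 cells stood at 54.8 and 199 CPM, and the 4 measured genes of the ciliated list all lay below equality. The 2 control members in the ciliated-like cluster held 13 and 15 of its 69 UMIs and were among the cells with the highest doublet scores. With such cells removed, the log2 ratio of Tppp3 moved from -1.84 to -0.95 and was no longer counted. The ciliated list summed to 301 and 843 CPM in members against 18882 and 17679 CPM in ciliated-like cells. Cxcl17 (9 and 50 UMIs) and Nupr1 (18 and 78 UMIs) had 44.0% and 38.5% of their control UMIs in 1 cell of the club-like cluster. Lyz1, a lysozyme of AT2 cells close in sequence to Lyz2, had 61 and 340 UMIs. Of the control UMIs, 171 and 90 lay in 2 cells, so leaving out 1 cell did not remove this weight. The median of Lyz1 over cells was 205 CPM in both libraries. Upk1b, a membrane protein of bladder and mesothelium, stood at 74.4 and 179 CPM in 12 and 27 members. For these last genes, the part of mixed droplets was not tested.

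The circadian list had the lowest median of the 24 pathway lists among all members, though with the Sftpc limit at 5% the chemokine (-0.93) and MHC class II (-0.87) lists lay below it (-0.81). All 7 measured genes lay below equality, with a median log2 ratio of -0.89. None of the 3 countable met the size rule, beside 1.32% of all genes lower. Dbp, a transcription factor driven directly by the clock, had 62 and 156 UMIs, or 243 and 451 CPM, a fold of 0.538 (0.395 to 0.727), in 25 of 28 and 48 of 54 members. Its median over cells was 205 and 406 CPM, and the ranges overlapped. Dbp was higher in the other classes of the tumor-bearing library, 2.05-fold in AT2-like, 2.40-fold in AT1-like, 1.68-fold in club-like and 1.61-fold in ciliated-like cells. Per3 stood at 43.0 and 104 CPM and Tef at 62.6 and 118 CPM, and in the other 4 classes their folds were 0.95 to 1.44.

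No antigen presentation gene met the rule, of 6 countable for MHC class I and 3 for class II. Of all genes, 2.17% were higher and 1.32% lower, so a count of 0 among so few genes says little. Of 10 measured class I genes 7 lay below equality, with a median of -0.36. Over the alternatives this median ran from -0.62 to -0.06, the latter over the members that held Krt5. The median of class II was -0.28. It ran from -0.87 to 0.06, the latter with the highest doublet scores removed. B2m, the shared light chain, stood at 356 and 676 CPM, 0.527-fold (0.409 to 0.674), and H2-K1 at 258 and 500 CPM, 0.517-fold (0.383 to 0.690). In AT2-like cells they were 0.537-fold and 0.591-fold. Interferon-induced genes showed no common direction, with 5 of 8 above and 3 below equality and a median of 0.18. Ifitm3, an antiviral membrane protein, stood at 1276 and 1043 CPM, above every other class in both libraries.

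Basal genes lay on both sides of equality. By the size rule 2.17% of all genes were higher and 1.32% lower, which stands beside each count below. Of 15 measured basal keratins and transcription factors 7 lay above and 8 below equality, with a median log2 ratio of -0.09, and none of 12 countable met the rule. Trp63 stood at 164 and 98.2 CPM, 1.67-fold (1.04 to 2.71), and without its top cell 1.31-fold (0.778 to 2.19). Notch genes had a median of -0.04, Wnt genes -0.01, EGF and FGF genes 0.00, desmosome genes -0.06 and tight junction genes -0.10, with none counted in either direction among 4, 3, 2, 7 and 4 countable genes. Antioxidant and xenobiotic genes had 13 above and 23 below equality and a median of -0.26. Of 26 countable, Cyp2b10, a cytochrome P450, was lower at 62.6 and 147 CPM and none was higher, while Por, the electron donor of these enzymes, stood at 407 and 685 CPM, 0.595-fold (0.468 to 0.752). Apoe was 0.679-fold (0.609 to 0.756), and 0.723-fold in AT2-like cells. Airway secretory and host defence genes had the most counted genes, 5 of 18 higher and 1 lower, and all 5 rested on 1 cell each.

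Other cells' markers moved with these comparisons. The club list summed to 80881 and 44984 CPM in members, against 127089 and 24641 CPM in empty droplets and 611075 and 536258 CPM in club-like cells. Scgb1a1 alone had 69.0% and 38.3% of its UMIs in 1 member of each library. The endothelial list summed to 415 and 37.5 CPM, and 15 of the 21 UMIs of Cldn5 lay in 1 cell. The neuroendocrine list summed to 200 and 11.6 CPM, with all 19 UMIs of Resp18 in 1 tumor-bearing cell. The AT2 list was nearly equal, at 74956 and 78743 CPM. Their part in the differences between the libraries was not tested.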

How the data were processed

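For each barcode and gene, the tables deposited by the authors give raw UMI counts, from 1 tumor-bearing and 1 control library. Reads were processed with Cell Ranger 2.1.0, per the series design, on mm10, and R 3.5.3 and Seurat are named without a role, per the submitters' processing notes. Each table held 737280 barcodes, so cells were called here by the limits given in the report. Counts of the chosen cells were summed per library and scaled to CPM, and no normalization, ambient correction or doublet removal was applied in the values reported. Of 28692 gene identifiers 98.77% were found in GENCODE vM21, and 58 symbols stood for more than 1 identifier and were left out of the named genes, except Ltbp4, given for 1 identifier.

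Classes came from joint clustering of both libraries (scanpy 1.11.5, 2000 variable genes, 30 principal components, 15 neighbours, Leiden resolution 0.8), named by marker lists. Members of the basal group were left out of the other classes. A cluster had to score at least 2 log2 units for its markers. For AT2-like 0.3 was enough where AT2 scored highest or no class reached 1. Doublet scores came from Scrublet. Its automatic threshold marked 0 and 1 cells, so the alternative removed the highest scores, 0.8% per 1000 cells. Empty droplets had 1 to 100 UMIs. Shares have Clopper-Pearson, CPM exact Poisson and folds conditional binomial 95% intervals. Folds against 0 used a floor of 3 UMIs. Comparisons were fixed as size rules with no p-value, since each group had 1 library. The count steps were tested on simulated data. The members, gene lists and rules were chosen with earlier results of these data known. Named were the basal markers, up to 24 genes above the other classes, up to 10 per direction whose CPM was at least 0.5 times that of empty droplets, and up to 4 members with at least 100 CPM per list. Other genes, among them Wfdc2, Krt18, Krt19, Ager, Foxj1, Scgb3a2, Prpf38b, Kmt2e, Abracl, Tpm1, Upk1b and Lyz1, were chosen after their values were seen. Python 3.11.15, scipy 1.17.1, numpy 2.4.6 and pandas 2.3.3 were used.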

Additional observations from a re-analysis of the deposited data

How the results depend on the processing

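No paired analysis was possible because each group has 1 library. The shares of basal cells moved by less than their counting interval under every alternative run, from 0.269% to 0.354% in the tumor-bearing and from 0.373% to 0.499% in the control library. Without a CPM minimum (at least 10 UMIs), 62 genes were higher, 42 lower and 144 above every other class. With free RNA subtracted, 27 were lower. Of 2 alternatives chosen after seeing the data, the basal-like cluster alone gave 10 lower genes, and leaving out for each gene the cell with most of its UMIs gave 8 higher and 10 lower. In the latter, Tagln turned to a log2 ratio of -2.76 and Sparcl1 to -1.58, since nearly all their tumor-bearing UMIs lay in the cell left out. The remaining alternatives gave 24 to 39 higher, 14 to 23 lower and 88 to 131 genes above every class. With the Sftpc limit at 5%, 8 of 23 lower genes and 23 of 39 higher genes were among the 17 and 28 of the report, and in the basal-like cluster alone 7 of 10 and 16 of 26. The median of the circadian list stayed between -1.25 and -0.63. Depth limited all of this, since 1 UMI was worth 3.91 and 2.89 CPM.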
